A study of Mus musculus with 8 samples.

Results

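Expression of 53 nucleolar ribosome biogenesis factors was examined in B cells that were on their way into the germinal center. The 53 members were taken by gene symbol, as genes known to work in the nucleolus on ribosomal RNA (rRNA) or on the assembly of the ribosomal subunits. The rule itself used no measured value, but the list was chosen with earlier results of these data known. All 53 were found among the 24259 gene symbols of the count table. All 53 also passed the filter on low counts, which kept 12744 genes for testing. The lowest count of any member in any library was 21, for Noc3l.

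RNA was sequenced from NP+IgDlowB220+ B cells, which bind the hapten NP and have lowered surface IgD, sorted from lymph nodes of C57BL/6 mice 3 days after immunization with NP-OVA (NP coupled to ovalbumin) together with LPS in alum. The recipients were CD45.1 Sap-/- mice, whose own T cells lack the adaptor SAP and support germinal centers poorly, and all of them had been given OT-II T cells, which recognize ovalbumin. In the HET group the OT-II T cells were CD4-Cre x Bcl6 fl/+, so that a T cell Cre deleted 1 allele of Bcl6, the transcription repressor that follicular helper T cells require. OT-II T cells of the WT group had CD4-Cre and no floxed Bcl6 allele. The comparison asks how the helped B cells differ when their helper T cells lack 1 copy of Bcl6. Since Bcl6 was deleted in helper T cells, while the B cells were sequenced, no targeted gene was available to check the group names. B cells from the recipients of a group were pooled, and 4 repeats of about 200 cells were sorted from each pool. The p-values therefore measure the spread of sorting and library preparation, and a difference between the groups cannot be told apart from a difference between the pools.

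Ribosomes are built mainly in the nucleolus. RNA polymerase I transcribes a long rRNA precursor there, small nucleolar ribonucleoproteins (snoRNPs) guide methylation and pseudouridylation of the precursor, and a succession of assembly factors, helicases and GTPases folds and cuts it into the RNAs of the small and the large subunit. B cells that have met antigen and received T cell help enlarge and divide, and raised ribosome production is a well known part of that activation, with MYC as a regulator of many of the genes.

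Promoter sequences were looked up for the members in RefSeq (build GRCm38.p6), as 250 bases before to 50 bases after the annotated start. Of the 53 members, 47 had an entry. Those of 3 members are shown as examples, of which Nolc1 and Mrto4 were picked by their values. Rrn3, the factor that recruits RNA polymerase I, holds the E-box CACGTG bound by MYC and related factors, Nolc1 is the member with the lowest p, and Mrto4 is the only member whose groups do not overlap. Capitals mark CACGTG, the variant E-box CACGCG and the ETS and GABP motif CCGGAAG on either strand.

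Rrn3 (chr16:13780449-13780748, plus strand): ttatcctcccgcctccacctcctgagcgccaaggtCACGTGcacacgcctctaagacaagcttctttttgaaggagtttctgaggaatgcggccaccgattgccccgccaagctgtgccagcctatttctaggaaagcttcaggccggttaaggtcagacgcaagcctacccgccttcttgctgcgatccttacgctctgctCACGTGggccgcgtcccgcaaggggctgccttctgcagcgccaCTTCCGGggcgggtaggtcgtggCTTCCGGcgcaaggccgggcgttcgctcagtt
Nolc1 (chr19:46075597-46075896, plus strand): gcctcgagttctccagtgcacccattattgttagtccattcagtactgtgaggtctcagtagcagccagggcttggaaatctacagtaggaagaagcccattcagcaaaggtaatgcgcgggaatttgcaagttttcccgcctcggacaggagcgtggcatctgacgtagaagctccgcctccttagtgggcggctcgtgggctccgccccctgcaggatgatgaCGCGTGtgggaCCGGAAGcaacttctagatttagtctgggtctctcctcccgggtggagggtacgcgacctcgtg
Mrto4 (chr4:139352527-139352826, minus strand): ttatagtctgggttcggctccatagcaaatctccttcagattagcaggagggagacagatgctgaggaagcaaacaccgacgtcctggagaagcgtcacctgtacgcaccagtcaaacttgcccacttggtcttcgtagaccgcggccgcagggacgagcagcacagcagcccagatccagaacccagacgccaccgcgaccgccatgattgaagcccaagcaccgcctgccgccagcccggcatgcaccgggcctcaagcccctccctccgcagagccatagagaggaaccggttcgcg

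The Rrn3 window holds CACGTG at 215 and at 48 bases before the start, and CCGGAAG in reverse orientation at 5 bases before and 19 bases after it. The Nolc1 window holds CACGCG in reverse orientation 25 bases before the start and CCGGAAG 14 bases before it. The Mrto4 window holds none of these motifs. Over the 47 members with an entry, 9 (19.1%) had CACGTG in a promoter, beside 12.2% of the 8927 tested genes with an entry and 8.09% of all 27025 genes in the table. CACGCG occurred in 31.9% of members and 20.2% of genes tested, CCGGAAG in 36.2% and 22.1%, and the GC box GGGCGG in 72.3% and 67.7%. These matches are a description of letters in a window and not of binding. Both strands were searched, and GGGCGG was not marked in the sequences above.

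The 8 libraries held 6652386 to 12559189 counts over 16104 to 17736 detected genes, and TMM scaling factors lay between 0.986 and 1.02. The common biological coefficient of variation was 0.391. All 10 B cell markers, Cd79a among them, were detected in every library. Counting error alone corresponded to a median coefficient of variation of 3.85% over the members. Except for the cell type markers, values below are counts per 1000000 after TMM scaling (CPM), listed in the order of replicates 1 to 4, and log2 fold changes are HET over WT.

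Most of the 53 members had a higher average level in HET than in WT B cells, each by a small amount, and no single member passed the adjusted threshold. The largest positive log2 fold changes were those of the helicase Ddx56 and of Nolc1 among members with an unadjusted p below 0.05, at 0.53 and 0.48. In edgeR's quasi-likelihood test, 0 of 53 members had a Benjamini-Hochberg adjusted p below 0.05, beside 3 of all 12744 genes tested (0.0235%). The lowest adjusted p of a member was 0.484, for Nolc1. At an unadjusted p below 0.05, 7 members (13.2%) were higher in HET and 0 were lower, beside 3.34% and 3.88% of all genes tested. These 7 were Nolc1, Npm1, Dkc1, Nhp2, Ddx56, Bop1 and Mrto4. The log2 fold change was positive for 46 members (86.8%) and negative for 7, beside 49.9% positive over all genes tested. Its median was 0.14 over the members and -0.0014 over all genes tested. Since the list was chosen with earlier results of these data known, these shares describe the list and do not test it. The groups did not overlap for 1 member, Mrto4, which is 1.89% of members beside 1.99% of all genes tested. No member was lower in every HET library than in every WT library, beside 2.62% of all genes. DESeq2 also called 0 members at an adjusted p below 0.05, with a lowest value of 0.128 for Nolc1, beside 0.17% of genes higher in HET. Without adjustment, DESeq2 gave 11 members higher at p below 0.05, beside 2.89% of genes.

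**Figure D1:**
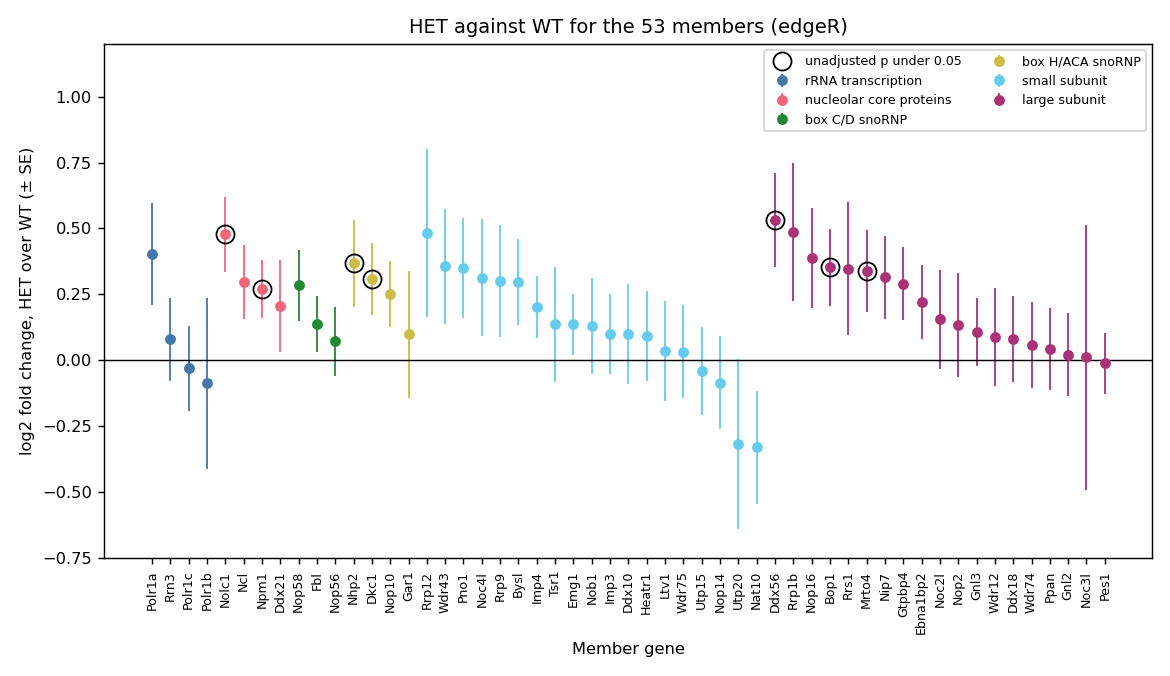
Log2 fold change of each of the 53 members, HET over WT, from edgeR (y axis), by member gene grouped and coloured by role (x axis), with bars for 1 standard error and rings for an unadjusted p below 0.05. Of the 53 points, 46 lie above 0, the 7 ringed points are all positive, and Nat10 and Utp20 are the lowest.

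The number of members at an unadjusted p below 0.05 moved with single libraries. Leaving out HET replicate 1 gave 14, all higher in HET, beside 517 higher of the 12910 genes tested in that subset. Leaving out WT replicate 2 gave 16, all higher, beside 579 of 12952 genes. The count was 2 without WT replicate 3, beside 432 of 13382 genes higher in HET. It was 3 without HET replicate 3, without HET replicate 4 or without WT replicate 4. Beside these, 375 of 13391, 377 of 13398 and 376 of 12958 genes were higher in HET. Without HET replicate 4, 2 of the 3 were higher in HET and 1 was lower, namely Nat10, with a log2 fold change of -0.49 and an unadjusted p of 0.0405 in edgeR. Nolc1 and Ddx56 had an unadjusted p below 0.05 in all 19 alternative settings and subsets that were run. Bop1 and Mrto4 did so in 11, Npm1 in 10, and Dkc1 and Nhp2 in 9. Of the members outside the 7, Nop58 did so in 10, Ncl in 7 and Nop16 in 6, so the 7 were not set apart by this count. The standard errors of the members' log2 fold changes ranged from 0.11 for Fbl to 0.50 for Noc3l, with a median of 0.17, which is larger than their median log2 fold change. The share of members with a positive log2 fold change stayed between 73.6% (without WT replicate 3) and 92.5% (without HET replicate 1) over the libraries left out.

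Among the abundant proteins of the nucleolus, all 4 members had positive log2 fold changes, with a median of 0.28. Nolc1 (Nopp140; chromosome 19, 46075863 to 46085530) binds snoRNPs and RNA polymerase I. It was read at 149, 185, 175 and 191 CPM in the HET libraries and at 149, 143, 107 and 103 CPM in the WT libraries. HET replicates 2 to 4 lay above every WT library, and HET replicate 1 lay just below WT replicate 1, so that the groups overlapped by that pair alone. Group means were 175 ± 18.5 CPM for HET and 125 ± 24.1 CPM for WT (SD, 4 libraries each). edgeR gave Nolc1 a log2 fold change of 0.48 ± 0.14 (SE, edgeR unadjusted p = 0.00485, adjusted p = 0.484). Npm1 (nucleophosmin; chromosome 11, 33152287 to 33163206), the chaperone of the granular outer nucleolus, was the most abundant member. Its levels were 1108, 1394, 1433 and 1439.9 CPM in HET and 1112, 1364, 1038 and 943 CPM in WT. HET replicates 2 to 4 lay above all WT libraries, whereas HET replicate 1 fell within the WT range. Npm1 had a log2 fold change of 0.27 ± 0.11 (SE, edgeR unadjusted p = 0.0296, adjusted p = 0.621).

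Ncl (nucleolin; chromosome 1, 86344719 to 86359400) is an RNA-binding protein that acts from rRNA transcription onward. It was read at 707, 897, 932 and 1123 CPM in HET and at 687, 945, 692 and 656 CPM in WT. WT replicate 2 stood well above the other WT libraries and within the HET range. The log2 fold change of Ncl was 0.30 ± 0.14 (SE), and its unadjusted p was 0.056 in edgeR (adjusted p = 0.706). Ddx21, an RNA helicase that binds rRNA and snoRNAs, had the smallest log2 fold change of these, 0.21 ± 0.17 (SE). Its HET libraries spanned 77.7 to 144 CPM and so enclosed all WT libraries, which spanned 79.3 to 108 CPM (edgeR adjusted p = 0.853). Processed pseudogenes of Npm1 exist in the mouse genome, and how reads with several alignments were counted was not stated, so the level of Npm1 is less certain than that of the other three.

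**Figure D2:**
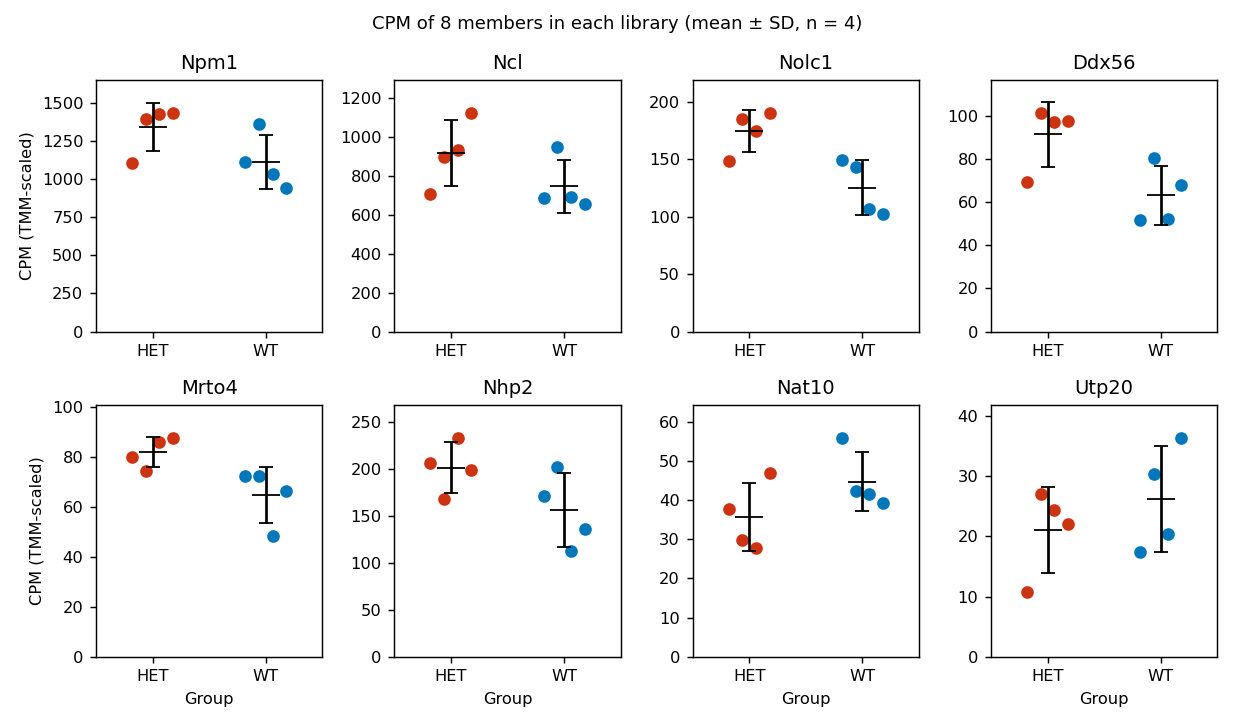
CPM after TMM scaling (y axes from 0, with a scale of their own per gene) of 8 members in the 4 HET (red) and 4 WT (blue) libraries in replicate order, with bars for the mean and 1 SD. Mrto4 has no overlap between groups, the HET libraries of Npm1, Nolc1 and Ddx56 lie mostly above the WT libraries with HET replicate 1 lowest, and Nat10 and Utp20 have the lower mean in HET.

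The snoRNP proteins carry the guide RNAs that direct rRNA modification, and all 7 of them had positive log2 fold changes. In the box H/ACA particle, which makes pseudouridine, the median log2 fold change was 0.28. Of the 4 proteins, 2 were higher in HET at an unadjusted p below 0.05 in edgeR, beside 3.34% of all genes tested. Dkc1 (dyskerin; chromosome X, 75095854 to 75109777), its catalytic subunit, was read at 109, 157, 172 and 149.5 CPM in HET and 126, 121, 113 and 114 CPM in WT. HET replicate 1 was the lowest of all 8 libraries and the other HET libraries were the 3 highest. For Dkc1 the log2 fold change was 0.31 ± 0.14 (SE, edgeR unadjusted p = 0.0416, adjusted p = 0.657). Nhp2 (chromosome 11, 51619735 to 51623714), which binds the guide RNA, was read at 206, 168, 233 and 199 CPM in HET and 172, 203, 113 and 137 CPM in WT. WT replicate 3 was the lowest, and WT replicates 1 and 2 lay among the HET libraries. Nhp2 had a log2 fold change of 0.37 ± 0.16 (SE, edgeR unadjusted p = 0.0424, adjusted p = 0.666). Nop10, the small linker protein of the particle, had a log2 fold change of 0.25 ± 0.13 (SE), at mean levels of 209 ± 13.7 CPM for HET and 176 ± 30.3 CPM for WT (SD, 4 libraries each). Gar1, also a core protein of the particle, had a log2 fold change of 0.10 ± 0.24 (SE) with HET libraries at 25.3 to 48.2 CPM and WT libraries at 25.4 to 42.9 CPM. Neither passed an unadjusted p of 0.05 in edgeR.

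In the box C/D particle, which guides 2′-O-methylation, the median log2 fold change was 0.14 and no protein had an unadjusted p below 0.05 in edgeR. Nop58, a scaffold protein, came nearest, at 164, 196, 190.1 and 176 CPM in HET and 163, 178, 117 and 137 CPM in WT. Its log2 fold change was 0.28 ± 0.13 (SE, edgeR unadjusted p = 0.0519, adjusted p = 0.701), and WT replicates 3 and 4 held its lowest values. Fbl (fibrillarin), the methyltransferase, varied little, with 122 to 138 CPM in HET and 112 to 123 CPM in WT and a log2 fold change of 0.14 ± 0.11 (SE). Nop56, the partner of Nop58, had a log2 fold change of 0.07 ± 0.13 (SE), and its HET libraries (236 to 323 CPM) covered most of the range of its WT libraries (208 to 291 CPM). The difference of Nop56 was below its standard error.

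Genes of RNA polymerase I transcription did not share one direction. Of 4 members, 2 had positive and 2 negative log2 fold changes, with a median of 0.03, and none had an unadjusted p below 0.05 in edgeR. Polr1a, the largest subunit of the polymerase, was read at 47.7, 34.7, 40.3 and 44.4 CPM in HET and 36.6, 31.5, 26.4 and 32.0 CPM in WT. HET replicates 1, 3 and 4 lay above all WT libraries, and HET replicate 2 lay within them. Its log2 fold change was 0.40 ± 0.19 (SE, edgeR unadjusted p = 0.0569, adjusted p = 0.706). Polr1b, the second largest subunit, was split within the HET group, at 22.7, 24.6, 58.7 and 57.9 CPM in HET beside 62.1, 41.7, 38.7 and 30.9 CPM in WT. HET replicates 1 and 2 were its lowest libraries of all and HET replicates 3 and 4 were near its highest, and the log2 fold change was -0.09 ± 0.32 (SE). Polr1c, a subunit shared with RNA polymerase III, had the same split at 51.9, 50.1, 70.0 and 68.8 CPM in HET, beside 58.3 to 65.5 CPM in WT, and a log2 fold change of -0.03 ± 0.16 (SE). Rrn3, whose promoter is shown above, had mean levels of 54.9 ± 5.84 CPM for HET and 51.9 ± 4.70 CPM for WT (SD, 4 libraries each), which gave a log2 fold change of 0.08 ± 0.16 (SE).

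Among the 19 factors of the small subunit, 15 had positive and 4 had negative log2 fold changes, with a median of 0.13, and none had an unadjusted p below 0.05 in edgeR. The lowest p was that of Pno1 (chromosome 11, 17203198 to 17211568), an RNA-binding protein of late small-subunit precursors. It was read at 68.1, 88.3, 73.3 and 77.3 CPM in HET and 42.9, 83.2, 58.6 and 55.9 CPM in WT. WT replicate 1 was its lowest library and WT replicate 2 lay above 3 of the HET libraries. For Pno1 the log2 fold change was 0.35 ± 0.19 (SE, edgeR unadjusted p = 0.0845, adjusted p = 0.74). Bysl, which acts on the same late precursors, had a log2 fold change of 0.30 ± 0.16 (SE), with 63.5, 82.4, 97.8 and 100.2 CPM in HET and 60.6, 77.5, 66.4 and 74.9 CPM in WT. HET replicate 1 was again below most WT libraries while the other 3 HET libraries were above all of them. Imp4, a protein of the U3 snoRNP that prepares the first cuts of the precursor, had mean levels of 126 ± 13.4 CPM for HET and 109 ± 6.74 CPM for WT (SD, 4 libraries each), which gave a log2 fold change of 0.20 ± 0.12 (SE).

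Wdr43, which belongs to the UTP complex that binds the nascent precursor, had a log2 fold change of 0.36 ± 0.22 (SE), with HET libraries at 109 to 186 CPM and WT libraries at 72.4 to 141 CPM. Rrp12, an export factor, had the largest positive log2 fold change of the small-subunit members, 0.48 ± 0.32 (SE), at low and scattered levels of 33.4, 17.0, 29.2 and 22.4 CPM in HET and 23.3, 25.5, 12.4 and 11.8 CPM in WT. Its groups overlapped widely. Nat10 (chromosome 2, 103721256 to 103761270), the enzyme that acetylates cytidines of small-subunit rRNA, had the most negative log2 fold change of all members. It was read at 37.8, 29.8, 27.9 and 46.9 CPM in HET and 55.9, 42.3, 41.5 and 39.2 CPM in WT, and HET replicate 4 lay above 3 of the WT libraries. For Nat10 the fitted value was -0.33 ± 0.21 (SE, edgeR unadjusted p = 0.144, adjusted p = 0.794). Utp20 (chromosome 10, 88746607 to 88826804), a large scaffold protein of the precursor particle, followed with a log2 fold change of -0.32 ± 0.32 (SE). Its levels of 10.7, 27.1, 24.4 and 22.0 CPM in HET and 17.4, 30.4, 20.3 and 36.3 CPM in WT overlapped. The negative sign of Utp20 turned to 0.11 when HET replicate 1 and WT replicate 4 were both left out. The remaining small-subunit members (Nop14, Wdr75, Utp15, Heatr1, Rrp9, Imp3, Emg1, Noc4l, Ddx10, Ltv1, Tsr1 and Nob1) had log2 fold changes between -0.08 for Nop14 and 0.31 for Noc4l.

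Among the 19 factors of the large subunit, 18 had positive log2 fold changes, with a median of 0.16. At an unadjusted p below 0.05 in edgeR, 3 (15.8%) were higher in HET, beside 3.34% of all genes tested. Ddx56 (chromosome 11, 6258919 to 6267772), a DEAD-box helicase of large-subunit precursors, had the largest log2 fold change of all 53 members. It was read at 69.3, 102, 97.1 and 98.0 CPM in HET and 51.6, 80.6, 52.2 and 68.3 CPM in WT. HET replicates 2 to 4 were close together above all WT libraries, and HET replicate 1 was far below them at the level of WT replicate 4. Group means were 91.5 ± 14.9 CPM for HET and 63.2 ± 13.9 CPM for WT (SD, 4 libraries each). For Ddx56 the log2 fold change was 0.53 ± 0.18 (SE, edgeR unadjusted p = 0.0102, adjusted p = 0.568). Bop1 (chromosome 15, 76452989 to 76477277) is a scaffold of the PeBoW complex, which processes the large-subunit precursor. Its levels were 127, 135, 97.4 and 145 CPM in HET and 114, 106, 84.1 and 91.4 CPM in WT, with HET replicate 3 inside the WT range and the other HET libraries above it. Bop1 had a log2 fold change of 0.35 ± 0.15 (SE, edgeR unadjusted p = 0.0313, adjusted p = 0.621). Its partners in the complex had smaller values. Pes1 had a log2 fold change of -0.01 ± 0.12 (SE), the only negative one among large-subunit members, and Wdr12 one of 0.09 ± 0.19 (SE).

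Mrto4 (chromosome 4, 139347435 to 139352576), which holds the place of the ribosomal stalk on large-subunit precursors, was read at 79.9, 74.4, 85.8 and 87.5 CPM in HET and 72.1, 72.2, 48.3 and 66.1 CPM in WT. All 4 HET libraries lay above all 4 WT libraries, by a margin between HET replicate 2 and WT replicate 2 that was small beside the spread within WT. Mrto4 had a log2 fold change of 0.34 ± 0.15 (SE, edgeR unadjusted p = 0.0461, adjusted p = 0.674). Gtpbp4 (Nog1), a GTPase that marks large-subunit precursors, had mean levels of 116 ± 13.0 CPM for HET and 95.2 ± 14.3 CPM for WT (SD, 4 libraries each), which gave a log2 fold change of 0.29 ± 0.14 (SE). Nop16, a protein of early large-subunit particles, had 72.8, 93.5, 111 and 101 CPM in HET and 85.3, 83.0, 47.2 and 72.4 CPM in WT, a log2 fold change of 0.39 ± 0.19 (SE). WT replicate 3 was lowest, and HET replicate 1 lay at the level of WT replicate 4. Nip7, needed for large-subunit maturation, had a log2 fold change of 0.32 ± 0.16 (SE). Rrp1b had one of 0.49 ± 0.26 (SE), with 41.6, 43.9, 56.9 and 71.0 CPM in HET and 35.2, 58.4, 24.1 and 34.2 CPM in WT. WT replicate 2 exceeded 3 of the HET libraries for Rrp1b, and HET replicate 4 and WT replicate 3 were the extremes. The other members of the group (Nop2, Wdr74, Rrs1, Gnl3, Gnl2, Ebna1bp2, Noc2l, Noc3l, Ddx18 and Ppan) had log2 fold changes between 0.01 for Noc3l and 0.35 for Rrs1.

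Levels of the members differed far more from gene to gene than between groups. Compared per length, as CPM per kilobase of the longest annotated protein-coding transcript averaged over the 8 libraries, Npm1 stood highest at 753. Emg1, a methyltransferase of small-subunit rRNA, followed at 215, and then Nop10 at 174, Nhp2 at 172, Nop56 at 140, Fbl at 104 and Ncl at 101. Npm1 (578 to 882 CPM per kilobase over the libraries) lay above every other member, whereas from Emg1 (166 to 243) and Nop10 (125 to 205) down to Fbl (93.8 to 116) and Ncl (79.9 to 137) the ranges of neighbours in this order overlapped. The level of Ncl is low for its CPM because its longest annotated transcript spans 8202 bases. Which transcript was expressed was not measured, and a shorter one would give a higher level per kilobase. The places of Ncl and of other members with long annotated transcripts, such as Nop58 (9507 bases) and Wdr12 (10012 bases), are therefore uncertain. The lowest were Polr1a at 3.98, Noc3l at 3.65 and Utp20 at 2.67, whose ranges over libraries also overlapped. By this length, and apart from Emg1, the 7 highest members were nucleolar core and snoRNP proteins. The deposited TPM was not used for this order, since the gene lengths it implies followed the genomic span including introns (Spearman 0.959 across 11330 genes) more than the exons (0.629).

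The members varied together between libraries. Among the WT libraries, replicate 3 held the lowest value of all 8 libraries for 24 members (45.3%) and the highest for 0, whereas over all genes tested it was lowest for 14.5% and highest for 13.7%. HET replicate 4 held the highest value for 20 members (37.7%), beside 13.5% of all genes tested. The mean log2 CPM over the 53 members, a score per library, was 6.26, 6.47, 6.54 and 6.65 in HET and 6.35, 6.51, 6.04 and 6.28 in WT. HET replicate 1 lay below WT replicates 1, 2 and 4, and WT replicate 2 lay above HET replicates 1 and 2, so the groups overlapped. Group means of the score were 6.48 ± 0.17 for HET and 6.30 ± 0.19 for WT (SD, 4 libraries each), a difference of 0.19 that was about the size of the spread within a group. This difference became 0.11 when WT replicate 3 was left out and 0.27 when HET replicate 1 was. As a share of all counts, the members took 0.715% ± 0.0783 for HET and 0.614% ± 0.0766 for WT (SD), with 0.545% in WT replicate 3 and 0.787% in HET replicate 4 as the extremes. WT replicate 3 had the lowest score in 5 of the 6 role groups, the exception being rRNA transcription. The median coefficient of variation of a member between libraries was 14.4% in HET and 19.2% in WT, beside 17.96% and 17.87% over the 7398 genes tested in the same range of CPM.

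**Figure D3:**
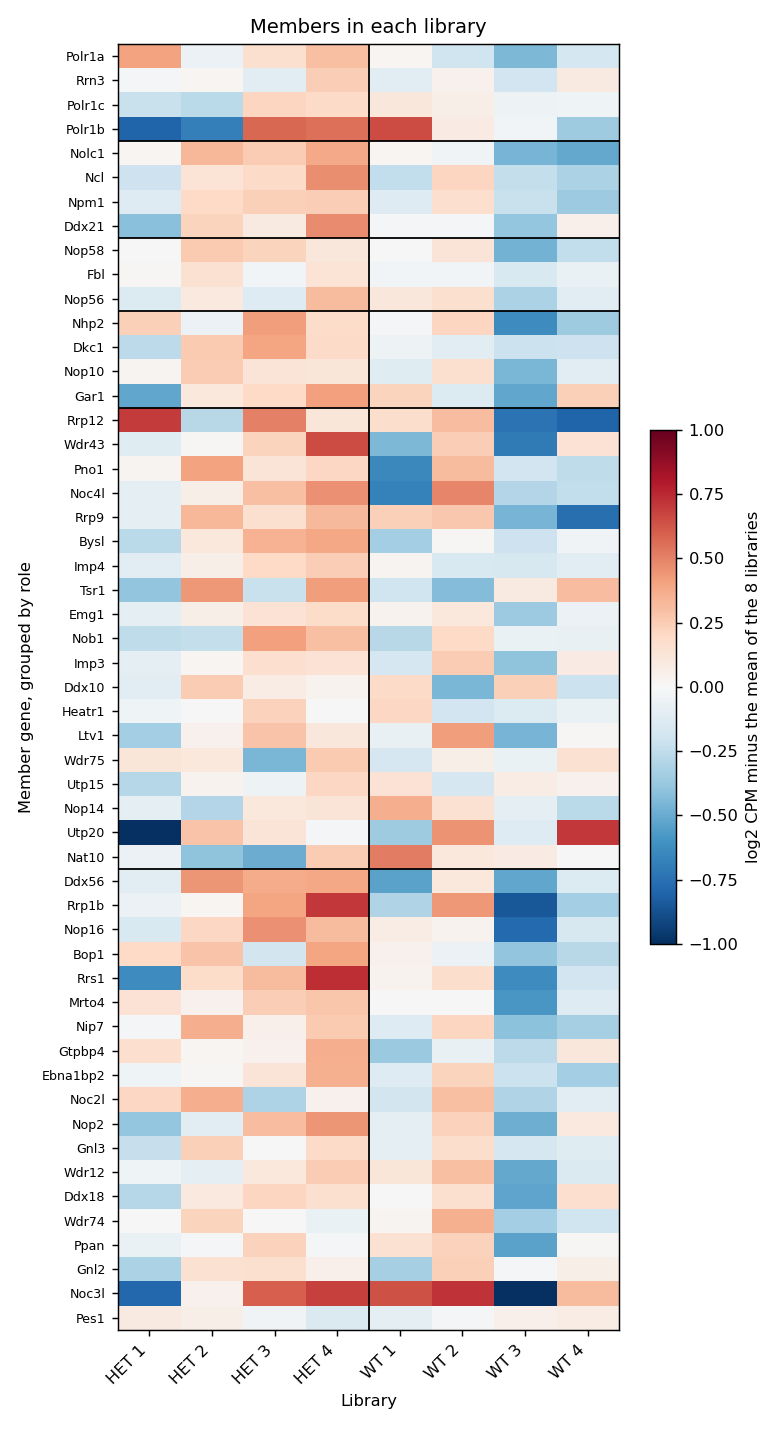
Log2 CPM of each member minus its mean over the 8 libraries (colour, cut off at -1 and 1), with members in vertical order by role and, within a role, by log2 fold change, and the 8 libraries along the horizontal axis. The column of WT replicate 3 is mostly blue, with the lowest value for 24 members, and that of HET replicate 4 mostly red, with the highest for 20.

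Other gene lists moved beside the members, and their part in the difference was not tested. The score of 36 cell cycle genes had means of 5.70 ± 0.29 for HET and 4.93 ± 0.67 for WT (SD). Of these genes, 35 were higher on average in HET, beside 49.9% of all genes tested. At an unadjusted p below 0.05 in edgeR, 13 were higher, beside 3.34% of all genes tested. Both scores were highest in HET replicate 4, at 0.77 from the mean of all libraries for the cell cycle genes and 0.27 for the members, and second highest in HET replicate 3, at 0.43 and 0.15. The lowest library for the cell cycle genes was WT replicate 4, at -1.37 from the mean, where the members' score was -0.10 from the mean. In WT replicate 3, the lowest library for the members at -0.35, the cell cycle score was -0.21 from the mean. The mean log2 CPM of 87 cytosolic ribosomal protein genes, the products of which the members assemble, had means of 9.52 ± 0.04 for HET and 9.49 ± 0.10 for WT (SD), a difference of 0.03. Myc itself was read at 219, 226, 230.1 and 288 CPM in HET and at 229.7, 181, 119 and 235 CPM in WT, with the lowest value again in WT replicate 3. The log2 fold change of Myc was 0.33 ± 0.18 (SE, edgeR unadjusted p = 0.088, adjusted p = 0.740).

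**Figure D4:**
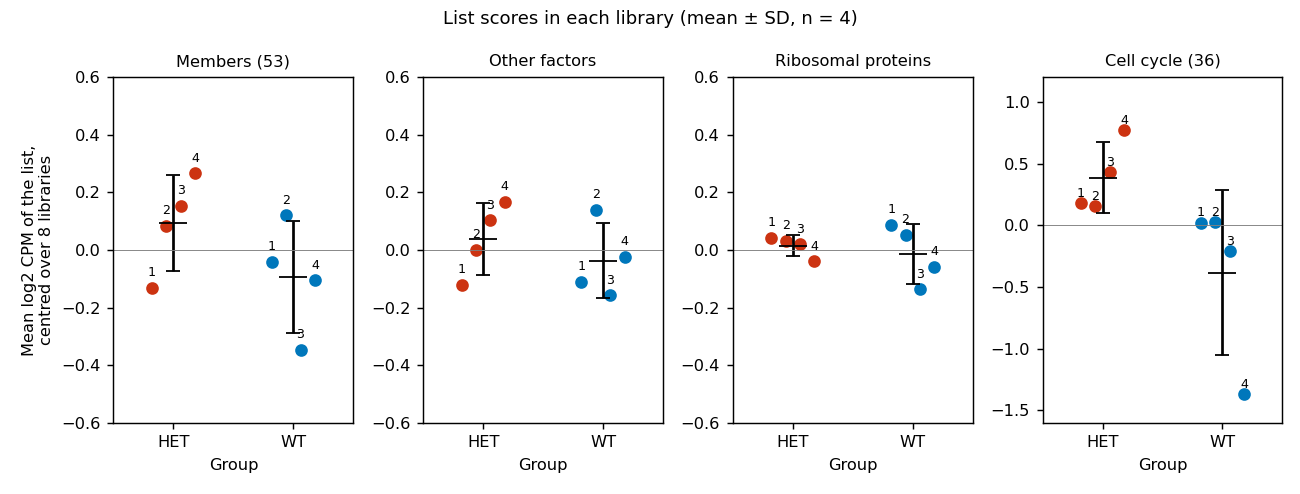
Mean log2 CPM of 4 gene lists in each library, centred over the 8 libraries (y axis; the cell cycle panel has a wider scale), by group (x axis), with replicate numbers beside the points and bars for the mean and 1 SD. The members' score is lowest in WT replicate 3 and highest in HET replicate 4, ribosomal proteins stay near 0, and the cell cycle score is lowest in WT replicate 4.

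Markers of B cells and of other cells were also read beside the members, and their levels are given as CPM of all counts of a library without TMM scaling, since some of them were below the filter. All 10 B cell markers were lower on average in HET, 7 of them at an unadjusted p below 0.05 in edgeR, beside 3.88% of all genes tested. Their summed level was 11634.5 to 13349 CPM in HET and 13738 to 15069 CPM in WT. Of 12 T cell markers, 11 could be tested and 10 of these were higher on average in HET, none at an unadjusted p below 0.05, with summed levels of 489.5 to 763 CPM in HET and 441 to 645 CPM in WT. Cd2, the 1 that was lower on average in HET, gave the largest part of the sum in every library. It lay at 165 to 247 CPM in HET and 202 to 247 CPM in WT. Cd4 was at 0 in 5 libraries, whereas each of the 11 tested markers was detected in every library. Among them, Cd8b1, a marker of CD8 T cells, lay at 53.5 to 124 CPM in HET and 12.1 to 67.1 CPM in WT. Of 9 myeloid markers, 5 could be tested, and of these 4 were lower on average in HET and 1, Cst3, was higher. Csf1r was lower in HET at an unadjusted p of 0.0218 (edgeR). Cst3 lay at 217 to 281 CPM in HET and 222 to 231 CPM in WT. Cd14, S100a8 and S100a9 were each at 0 in 5 libraries, Lyz2 reached 397 CPM in WT replicate 2, and the summed levels were 239 to 296 CPM in HET and 248 to 653 CPM in WT. Of 10 plasmablast markers, 9 could be tested and 7 were higher on average in HET, none at an unadjusted p below 0.05. Jchain reached 1561 CPM in HET replicate 1, and the summed levels were 379 to 2271 CPM in HET and 329 to 628 CPM in WT. RNA came from pools of cells, in which fewer cells of a type and less RNA per cell cannot be told apart. The part of these differences in the members' values was not tested.

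A wider list of 110 other ribosome biogenesis factors in the table, of which 109 could be tested, had values nearer to those of all genes. Of these, 69 (63.3%) had a positive log2 fold change, with a median of 0.08. In edgeR, 0 passed an adjusted p of 0.05. At an unadjusted p below 0.05, 7 were higher in HET (6.42%) and 2 lower (1.83%), beside 3.34% and 3.88% of all genes tested. DESeq2 gave 0 past the adjusted threshold too. The groups did not overlap for 3 of them (2.75%), all higher in HET, which is near the 1.99% of all genes tested. The share of all genes lower without overlap was 2.62%. The 3 were Rpf2, Pih1d1 and the polymerase I subunit Znrd1, the last named after its values were seen. Rpf2 (chromosome 10, 40223246 to 40247036) works with the member Rrs1 to bring the 5S rRNA particle into the large subunit. It was read at 61.2, 73.2, 66.7 and 61.0 CPM in HET and 42.4, 53.1, 44.9 and 49.2 CPM in WT, with every HET library above every WT library. Its log2 fold change was 0.47 ± 0.15 (SE, edgeR unadjusted p = 0.00882, adjusted p = 0.554). Pop5, a subunit of RNase MRP and RNase P, had a log2 fold change of 0.47 ± 0.16 (SE). Pih1d1, of the R2TP complex that assembles snoRNPs, had one of 0.50 ± 0.18 (SE) at 47.8, 73.3, 57.8 and 61.3 CPM in HET and 45.2, 44.2, 44.9 and 35.9 CPM in WT, again without overlap.

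Lower on average in HET were the ATPases Mdn1 and Nvl, which strip factors from large-subunit precursors, and the helicase Ddx55. Mdn1 was read at 46.4, 41.1, 49.6 and 32.5 CPM in HET and 44.2, 73.8, 67.3 and 72.0 CPM in WT, where WT replicate 1 lay within the HET range. Mdn1 had a log2 fold change of -0.60 ± 0.20 (SE, edgeR unadjusted p = 0.00987, adjusted p = 0.561). The values of Ddx55 and Nvl were -0.49 ± 0.21 (SE) and -0.47 ± 0.23 (SE). Large-subunit factors thus had both the lowest unadjusted p of the wider list in the positive direction and all 3 of the named negative values. By role, the share of positive log2 fold changes in the wider list ran from 59.5% of 37 large-subunit factors to 66.7% of 12 factors of rRNA transcription and of 18 tested factors of the exosome and RNase MRP. The number of the 109 at an unadjusted p below 0.05 fell to 5 without HET replicate 2, with 4 higher and 1 lower in HET. Beside these, 373 of 13359 genes were higher and 467 lower. Without WT replicate 3 it fell to 4, with 3 higher and 1 lower, beside 432 higher and 395 lower of 13382 genes.

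Transcript length was compared with direction, because the share of positive log2 fold changes depended on it over all genes. Of the tested genes with an annotated protein-coding transcript, 62.0% were positive where the longest was under 2000 bases, 47.9% from 2000 to 5000 bases and 38.6% at 5000 bases or more. Among the members the shares were 94.4% of 18, 81.5% of 27 and 87.5% of 8, so they stood above the share of all genes in each class. Among the other factors they were 71.4% of 35, 60.6% of 66, and 4 of 8. Spearman's correlation of length with log2 fold change was -0.17 across 10264 genes and -0.03 across the 53 members, as a description across genes that share libraries. The members' median transcript was 2804 bases, beside 3063.5 over all genes. The classes use the longest annotated transcript, which need not be the one expressed. What part the length had in any difference was not tested.

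**Figure D5:**
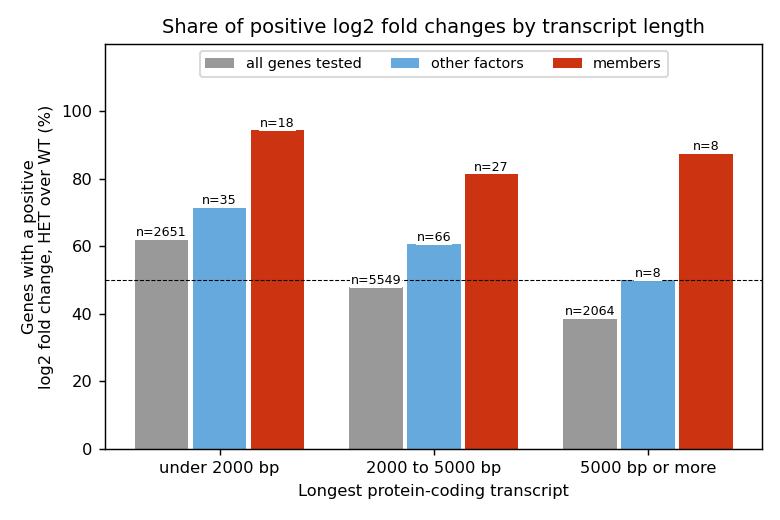
Percent of genes with a positive log2 fold change, HET over WT (y axis from 0), by length class of the longest protein-coding transcript (x axis), for all genes tested, the other factors and the 53 members, with the number of genes above each bar and a dashed line at 50%. The share falls from 62.0% to 38.6% over all genes, and the members are at 81.5% or more in each class.

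In the genome, several members carry snoRNA genes inside their own gene. GENCODE placed 23 snoRNA genes on the same strand within 8 of the 53 members (15.09%), beside 1.792% of the protein-coding genes tested. These hosts were Nop56 with 5, Nop58 with 4, Ncl, Wdr43 and Gnl3 with 3 each, Tsr1 and Ppan with 2 each, and Dkc1 with 1. The libraries were made from polyadenylated RNA. Whether any reads of the snoRNAs or of introns entered the members' values was not checked. Exons of 20 members overlap a gene on the opposite strand, among them Bysl with Ccnd3, Dkc1 with Mpp1, Nhp2 with Rmnd5b, Bop1 with Mroh1, Nop56 with Idh3b and Pno1 with Wdr92. The strand setting of the counting was not stated, so reads of such pairs cannot be told apart and the values of these members are less certain.

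Log2 fold changes were set beside the motifs in the promoters described above. The 9 with CACGTG were Imp4, Ltv1, Nop2, Pes1, Pno1, Rrn3, Tsr1, Utp20 and Wdr43. Their median was 0.13, with 7 of 9 positive, and that of the other 38 was 0.15, with 33 positive. The 15 with CACGCG had a median of 0.25 and the other 32 one of 0.12. The 17 with CCGGAAG had a median of 0.10 and the other 30 one of 0.23. The differences were not tested.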

How the data were processed

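RNA-seq of 8 libraries of NP+IgDlowB220+ pre-GC B cells was used. The authors prepared them with an adapted SMART-Seq2 protocol without molecular identifiers, aligned reads to GRCm38 with HISAT2 2.2.1 and counted reads per gene with HTSeq. The annotation, strand setting and handling of reads with several alignments are not given in the sources used here. Of the deposited files, one holds counts of reads per gene symbol as whole numbers, and another holds the authors' TPM values, used here only in alternatives.

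Groups came from the sample titles. Counts of genes kept by filterByExpr (12744 of 24259 symbols) were TMM-scaled and HET was compared with WT by edgeR's quasi-likelihood test (edgeR 4.0.16, R 4.3.3; robust, no covariate), with p-values adjusted by Benjamini-Hochberg over all tested genes and a threshold of 0.05. Scripts were tested on counts simulated with 200 of 12744 genes changed. At an adjusted p below 0.05 in edgeR, 14% of 100 genes changed 2-fold and 83% of 100 changed 4-fold were recovered, with 4 unchanged genes called. The simulation gave every gene the common biological coefficient of variation of 0.391. The members' median coefficients were 14.4% in HET and 19.2% in WT, so these shares do not carry over to the members. Scores are means of log2 CPM with a prior count of 2. Alternatives were DESeq2 1.42.0, RLE size factors, other count filters, limma 3.58.1 on voom or log2 TPM values, a replicate block, other prior counts, immunoglobulin genes and the rRNA gene CT010467.1 left out, and each library left out.

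The members and all gene lists were chosen with earlier results of these data known. Values are given for every member of the rRNA transcription, nucleolar core and snoRNP groups, the 6 lowest unadjusted p of each subunit group, the 2 largest log2 fold changes in each direction, and the 3 lowest p in each direction among the other factors. Any other gene was named after its values were seen. Gene positions, transcript lengths and snoRNA genes came from GENCODE M21 (GRCm38), and promoters from RefSeq (GRCm38.p6).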

Additional observations from a re-analysis of the deposited data

Results flagged for a closer look

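In 5 of 86 groups of 4 libraries examined, 1 library stood apart from the other three by a gap above Dixon's critical value, where chance gives about 1 in 20. Npm1 was at 1108 CPM in HET replicate 1 and at 1394 to 1439.9 CPM in the other HET libraries. Ddx56 was at 69.3 CPM in the same library and at 97.1 to 102 CPM in the others. Ncl was at 945 CPM in WT replicate 2 and at 656 to 692 CPM in the other WT libraries. Ddx21 was at 79.3 CPM in WT replicate 3, beside 103 to 108 CPM. Pih1d1, of the wider list, was at 35.9 CPM in WT replicate 4, beside 44.2 to 45.2 CPM. For Npm1 and Ddx56 the library apart lowered the HET mean, and for Ncl it raised the WT mean, so that these values made the differences between groups smaller. For Ddx21 and Pih1d1 it lowered the WT mean.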

How the results depend on the processing

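No member passed an adjusted p of 0.05 in any setting, and the lowest adjusted p of a named gene was 0.128 (DESeq2). The 7 members at an unadjusted p below 0.05 became 11 with DESeq2 and 12 with limma-voom and quality weights, all higher in HET. Over all genes these settings gave 695 of 24064 and 553 of 12744 higher. With limma-trend the count was 3 on log2(TPM + 1) or log2(TPM + 0.1), beside 514 and 520 of 24232 genes higher. It was 2 on log2(TPM + 1) at a mean TPM of at least 1, beside 366 of 12405 genes. Without both HET replicate 1 and WT replicate 4, a setting chosen after seeing the data, it was 11, beside 432 of 12630 genes. With each library left out in turn the count ran from 2 (without WT replicate 3) to 16 (without WT replicate 2), the members' median log2 fold change from 0.11 to 0.27 (without HET replicate 1), and 0.23 without WT replicate 2, and the score difference from 0.11 to 0.27. For the other factors, the count of 9 ran from 4 (without WT replicate 3) to 12 (without HET replicate 1). Over all genes these subsets gave 432 higher and 395 lower of 13382, and 517 higher and 541 lower of 12910. The median of the other factors ran from 0.05 (without HET replicate 4) to 0.14 (without WT replicate 2). Of 659 pairs of a named gene and a setting, 648 kept direction and 11 changed sign, in 5 genes. Every pair stayed above the adjusted threshold, as no named gene passed it in any setting, so that side adds nothing on stability. With HET replicate 1 and WT replicate 4 both left out, Polr1c turned to 0.02 and Utp20 to 0.11, and Gar1 was at 0.35. With single libraries left out, Polr1b ranged from -0.31 to 0.14, Polr1c from -0.11 to 0.054, Nop56 from -0.024 to 0.14, Gar1 from -0.029 to 0.26 and Utp20 from -0.47 to -0.087. The cause of these changes was not tested. Replicate numbers did not pair the libraries (correlations of same-numbered deviations from -0.051 to 0.0129, and 1 of 8 libraries closest to its own number). With the replicate block, 10 members had an unadjusted p below 0.05, all higher in HET, beside 464 of 12744 genes higher. Of these members, 4 were among the 7, and 0 passed the adjusted threshold. With 4 libraries a group from 1 pool each and a median SE of 0.17, differences of the members' size were mostly not resolved for single genes.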
